A study of Arabidopsis thaliana with 8 samples.

Results

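PYE (POPEYE, AT3G47640, probe set ID.252427_at) and AT3G47650 (probe set ID.252409_at), which follow each other on chromosome 3 of Arabidopsis thaliana, were followed across all 4 groups of an array study of iron deficiency. They are 2 genes among the 22746 probe sets of the array that are not controls. The pair was chosen by its signals on these same arrays, in the comparison of pye-1 with wild type and in the iron response, so its values are given below as a description, with standard errors and intervals but no p-values. Whole roots were taken from the mutant pye-1 on medium without iron, pye-1 on medium with iron, wild type without iron and wild type with iron, with 2 arrays in each group. All plants were of the Columbia ecotype, with an age given as 7 days after germination, and had been raised on standard medium and then moved for 24 h. The -Fe medium held 0.3 mM ferrozine, which chelates ferrous iron, in place of the iron salt, while the +Fe medium contained Fe(III)-EDTA. Each array stands for a biological replicate of about 320 pooled roots. The mutant is represented by a single line, which is known as a T-DNA insertion in PYE. No second allele and no complemented line is among the arrays.

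PYE encodes a basic helix-loop-helix transcription factor that acts in the root, chiefly in the pericycle, when iron is short. It is known to repress iron homeostasis genes and to work beside related factors such as ILR3, which in turn are held in check by hemerythrin-domain ubiquitin ligases of the BRUTUS type. AT3G47650 has no symbol in the gene table used here. It is known as the Arabidopsis counterpart of maize BUNDLE SHEATH DEFECTIVE2, a plastid protein with a DnaJ-type zinc finger that holds Rubisco large subunits during assembly. In the TAIR10.1 gene table no entry of any kind (0) lies between the 2 genes. Their orientation and their probe sequences were not analysed here.

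Signals are MAS5 values in signal units on a linear scale, which the authors had scaled to a common trimmed mean of 250.02 on each array. Median signal was 91.4 to 97.6 over the 8 arrays. As a floor, the brightest of 27 control probe sets for bacterial transcripts, which were assumed to be unspiked, read 11.7 to 23.7 over the arrays, and this value is called the control level. A control for 25S ribosomal RNA differed by replicate number, at 242 to 565 on replicate 1 arrays and 1691 to 4047 on replicate 2 arrays, and the labels give no reason for this. Of 9 root markers, 2 have a named probe set here, the root hair expansins EXPA7 and EXPA18, and both lay above the control level on all 8 arrays. Differences are on the log2 scale, with the standard error of a limma fit that shares 1 estimate of the spread over all 8 arrays. With 2 arrays per group, their number limits the precision.

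PYE was low in pye-1 on both media and was higher without iron than with iron in both genotypes. In pye-1 without iron it read 25.03 and 28.2 signal units, and in pye-1 with iron 19.1 and 15.0. In wild type without iron it read 138 and 149 signal units, and in wild type with iron 56.7 and 65.1. The 4 groups did not overlap. Their order from lowest to highest was pye-1 with iron, pye-1 without iron, wild type with iron and wild type without iron. With so few arrays in each group, such a separation can arise by chance. Its share among all probe sets was not counted, and PYE was chosen by these signals, so the separation is only a description.

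The genotype difference of PYE (pye-1 minus wild type) was -2.44 ± 0.27 without iron and -1.84 ± 0.27 with iron, so pye-1 held 18.5% and 27.9% of the wild-type signal. By replicate number it was -2.47 and -2.41 without iron, and -1.57 and -2.12 with iron. The pye-1 signals lay near the bottom of the measurable range. With iron they were 1.02 and 1.18 times the control level of their own array, and without iron 1.30 and 2.42 times, whereas wild-type signals were 8.10 to 10.8 times it without iron and 2.75 to 3.53 times it with iron. With a pseudocount of 16 signal units, which damps dim readings, the difference with iron was -1.22. The position of the probes relative to the insertion was not analysed here, and the signals report only the stretch of transcript that these probes bind. In whole roots, fewer cells that express a gene and less RNA per cell cannot be told apart.

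The iron difference of PYE (without minus with iron) was 0.65 ± 0.27 in pye-1 and 1.24 ± 0.27 in wild type, or 1.57-fold and 2.37-fold. In pye-1 it was 0.39 in replicate 1 and 0.91 in replicate 2. In wild type the 2 replicates gave 1.29 and 1.20. The interaction, the iron difference in pye-1 minus that in wild type, was -0.59 with a 95% interval of -1.46 to 0.27. That interval includes 0, and with the pye-1 readings close to the control level the size of the remaining iron difference in the mutant is poorly measured.

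AT3G47650, the gene beside PYE, was also low in pye-1, and within each genotype its signals on the 2 media overlapped. It read 77.0 and 46.6 signal units in pye-1 without iron and 77.3 and 63.6 in pye-1 with iron. In wild type it read 191 and 205 signal units without iron and 223 and 201 with iron. All 4 pye-1 arrays lay below all 4 wild-type arrays, and the highest pye-1 signal (77.3) was well under the lowest wild-type signal (191). How many of all probe sets separate the genotypes in this way was not counted. All 8 readings were above the control level, by 3.98 to 4.98 times in pye-1 and 8.48 to 14.8 times in wild type.

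The genotype difference of AT3G47650 was -1.72 ± 0.24 without iron (95% interval -2.25 to -1.19) and -1.59 ± 0.24 with iron (-2.12 to -1.06). In pye-1 the signal was thus 30.3% of wild type without iron and 33.1% with iron, or 3.30-fold and 3.02-fold lower. Between arrays of the same replicate number the differences without iron were -1.31 and -2.13, and those with iron -1.53 and -1.66. The lowest of the 8 readings was pye-1 replicate 2 without iron, and with that array left out the difference was -1.36.

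The iron difference of AT3G47650 was -0.23 ± 0.24 in pye-1 (95% interval -0.76 to 0.30) and -0.10 ± 0.24 in wild type (-0.63 to 0.43). These intervals leave room for a rise to 1.35-fold or a fall to 0.646 of the level in wild type. The interaction was -0.13, with an interval of -0.88 to 0.62. The order of the groups by mean signal, from the lowest, was pye-1 without iron (61.8), pye-1 with iron (70.4), wild type without iron (198) and wild type with iron (212). The first and the last pair of this order did not differ beyond their spread.

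**Figure D1:**
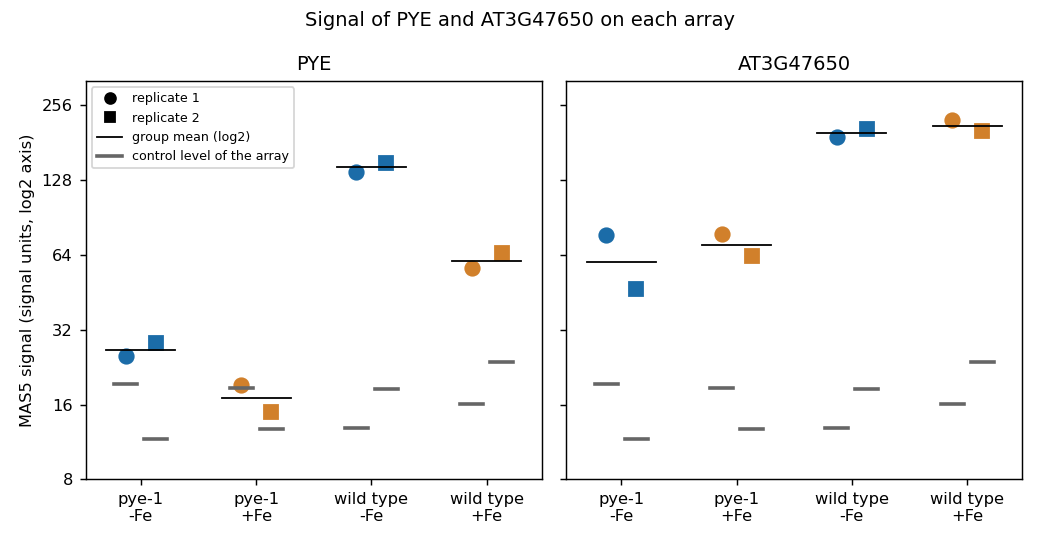
MAS5 signal of PYE and AT3G47650 in signal units (log2 axis) on each of the 8 arrays, with circles for replicate 1, squares for replicate 2, thin lines for group means of log2 signal and thick grey lines for the control level of each array. PYE separates all 4 groups and comes down to the control level in pye-1 with iron, while AT3G47650 separates the genotypes (46.6 to 77.3 in pye-1, 191 to 223 in wild type) and not the media.

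Among the 15922 probe sets tested, PYE had the lowest genotype difference without iron (rank 1) and rank 2 with iron. AT3G47650 had rank 14 from the lowest without iron and rank 5 with iron. Over all tested probe sets the median genotype difference was -0.03 without iron and 0.02 with iron. The pair was chosen by these same values, so its ranks describe it and are no evidence that it is unusual. The same holds for the next count, which was chosen after seeing the data. On both media 3 probe sets were at least as low in pye-1 as AT3G47650, counting AT3G47650 itself. The others were PYE and ID.258321_at, a probe set with no gene name here. That count was 2 to 4 when any 1 array was left out, but 59 when dim probe sets were kept.

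**Figure D2:**
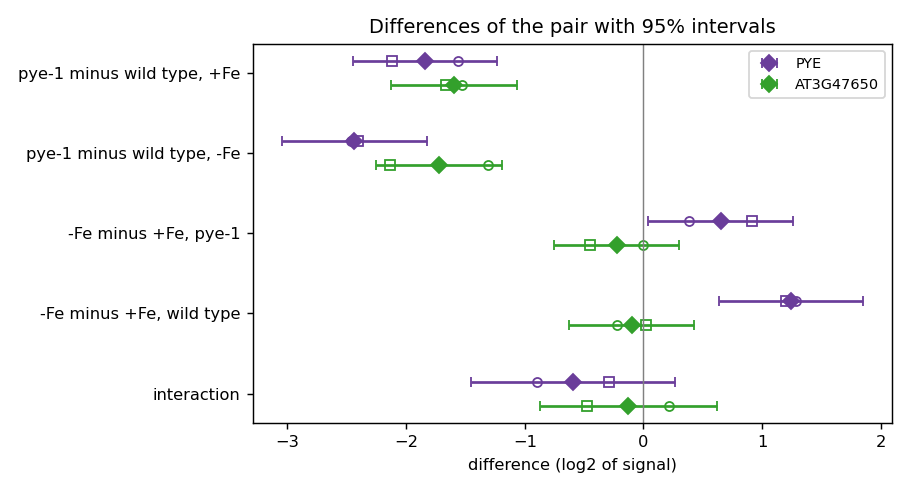
Differences of PYE and AT3G47650 in log2 signal for the 5 comparisons, with diamonds for the fitted value, bars for its 95% interval, and open circles and squares for replicates 1 and 2. Both genes lie between -1.59 and -2.44 in the 2 genotype comparisons, while in the iron comparisons PYE lies at 0.65 and 1.24 and AT3G47650 at -0.23 and -0.10.

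The genes around the pair were then read to see whether the low signals in pye-1 extended along the chromosome. The 10 protein-coding genes on either side in the gene table were taken by position alone. Of these 20 neighbours, 11 have a named probe set here and 10 passed the filter on dim signals. None of the 10 was called in pye-1 against wild type on either medium. Without iron 0 of 10 were called by limma (1 at an unadjusted p under 0.05), where 0.465% of all tested probe sets were called. With iron 0 of 10 were called (0 at an unadjusted p under 0.05), against 0.0628% of all. Counts this small are also what the share over all probe sets would give, so the sizes are of more use. The neighbours' differences were -0.13 to 0.70 without iron and -0.40 to 0.25 with iron, with medians of 0.06 and 0.08. These ranges end far above the -1.72 and -1.59 of AT3G47650, a contrast between genes that is given without a test.

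On the side of PYE, the next gene is AT3G47630. It read 164 and 152 signal units in pye-1 without iron, 95.8 and 109 in pye-1 with iron, 111 and 85.4 in wild type without iron and 87.0 and 89.1 in wild type with iron. The signals in pye-1 without iron lay above those of the other groups, in the opposite direction to PYE. The genotype difference without iron was 0.70 ± 0.19, the highest among the 10 neighbours, and it did not pass (limma adjusted p = 0.275). With iron it was 0.21 ± 0.19 (adjusted p = 0.997).

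On the side of AT3G47650, the next gene is AT3G47660, whose signals of 2.29 to 12.3 lay under the control level on all 8 arrays and were not tested. The first measured gene on that side is AT3G47670, which is 2 genes away. Its signals were 403 and 335 in pye-1 without iron and 362 and 288 in pye-1 with iron, against 373 and 326 in wild type without iron and 422 and 342 in wild type with iron. Its genotype differences of 0.08 ± 0.17 without iron and -0.23 ± 0.17 with iron did not pass (adjusted p = 0.986 and 0.997). Farther out, MAG2, which acts in protein export from the endoplasmic reticulum, had differences of -0.04 without iron and 0.25 with iron. AT3G47570 had the lowest value with iron, -0.40 ± 0.37, and AT3G47680 had 0.48 ± 0.26 without iron. The remaining neighbours, AT3G47540, AT3G47550, AT3G47560, AT3G47590 and AT3G47610, lay between -0.13 and 0.23 on both media.

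Iron did not move the neighbours past the threshold either. In pye-1, 0 of 10 were called without against with iron (2 at an unadjusted p under 0.05), where 1.05% of all probe sets were called. In wild type 0 of 10 were called (0 at an unadjusted p under 0.05), against 0.973% of all. For the interaction 0 of 10 were called (0 at an unadjusted p under 0.05), against 0.0879% of all. The replicate block, with replicate number as a term of the fit, also called 0 of the 10 in each of the 5 comparisons.

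**Figure D3:**
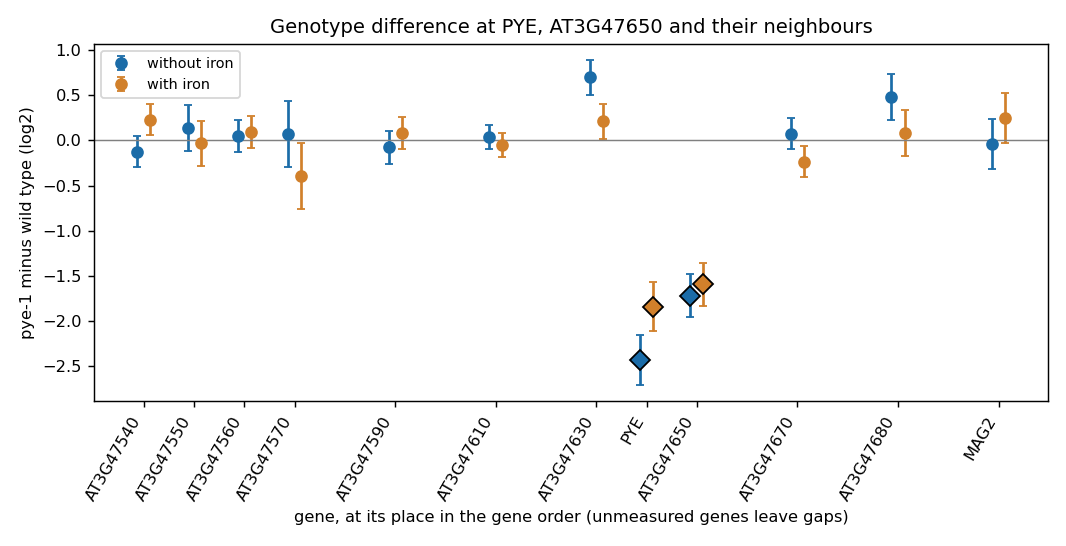
Genotype difference (pye-1 minus wild type, log2 signal) without and with iron for PYE and AT3G47650 (diamonds) and for the 10 tested neighbours (circles), placed by gene order, with standard errors. PYE and AT3G47650 lie between -1.59 and -2.44 and each tested neighbour lies between -0.40 and 0.70.

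The iron regulators around PYE were read from a list of 19 loci, of which 9 have a named probe set here, 10 probe sets in all, each of them tested. In pye-1 without against with iron, 5 rose, 0 fell and 5 did not pass, with a median of 0.73, where 1.05% of all probe sets were called and their median was -0.04. In wild type, again 5 rose, 0 fell and 5 did not pass, with a median of 0.52, where 0.973% of all were called and their median was 0.003. The probe sets called were the same in both genotypes. They belong to bHLH101, a subgroup Ib factor that partners the uptake regulator FIT, to IMA1 (AT1G47400), a small iron-signalling peptide, and to the ubiquitin ligases BTSL1 (AT1G74770, 2 probe sets) and BTSL2 (AT1G18910). Leaving out any of the 4 wild-type arrays ended the call of BTSL2 in wild type (adjusted p up to 0.309). Without pye-1 replicate 2 on -Fe medium, BTSL2 and the dimmer BTSL1 probe set lost theirs in pye-1 (adjusted p = 0.0552 and 0.0789).

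PYE's 1.24 in wild type was smaller than the 3.63 ± 0.28 of bHLH101 and the 3.75 ± 0.19 of IMA1 and larger than the 0.89 ± 0.16 of BTSL2, as sizes without a test between genes. In pye-1 the order of PYE and BTSL2 was reversed, at 0.65 ± 0.27 and 1.18 ± 0.16. ILR3, bHLH34, bHLH104 and bHLH115, the upstream subgroup IVc factors, had iron differences of -0.04 to 0.28 in pye-1 and -0.21 to 0.15 in wild type, and none passed. bHLH121, which belongs to the same subgroup IVb as PYE, had -0.11 in pye-1 and -0.24 in wild type and did not pass. AT3G47650, at -0.23 in pye-1 and -0.10 in wild type, thus sat among the regulators that were not called.

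In the genotype comparison no regulator on the list was called lower in pye-1. With iron 1 of 10 was higher in pye-1 and 0 lower, and without iron 1 was higher and 0 lower, in both cases IMA1. Over all probe sets 0.0628% were called with iron and 0.465% without iron. IMA1 read 1783 and 1186 signal units in pye-1 without iron and 226 and 216 in pye-1 with iron, against 570 and 561 in wild type without iron and 45.3 and 39.1 in wild type with iron. Its genotype difference was 1.36 ± 0.19 without iron (adjusted p = 0.0104) and 2.39 ± 0.19 with iron (adjusted p = 4.99e-04). The call without iron was lost without wild-type replicate 1 or 2 or pye-1 replicate 1 on that medium (adjusted p up to 0.0963). With the replicate block, bHLH101 was also called higher on both media (adjusted p = 0.0145 without iron and 0.0262 with iron) and the brighter BTSL1 probe set without iron (adjusted p = 0.0378), for 3 and 2 calls. Over all 15922 probe sets the block called more as well, at 273 without iron and 55 with iron. ILR3, bHLH34, bHLH104, bHLH115 and bHLH121 had genotype differences of -0.22 to 0.08 over both media. The interaction was called for 0 of 10 by limma (1 at an unadjusted p under 0.05). Of all probe sets 0.0879% were called, and 915 of 15922 had an unadjusted limma p under 0.05. NAS4, FRO3 and ZIF1, known targets of PYE, have no named probe set here and were not analysed.

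**Figure D4:**
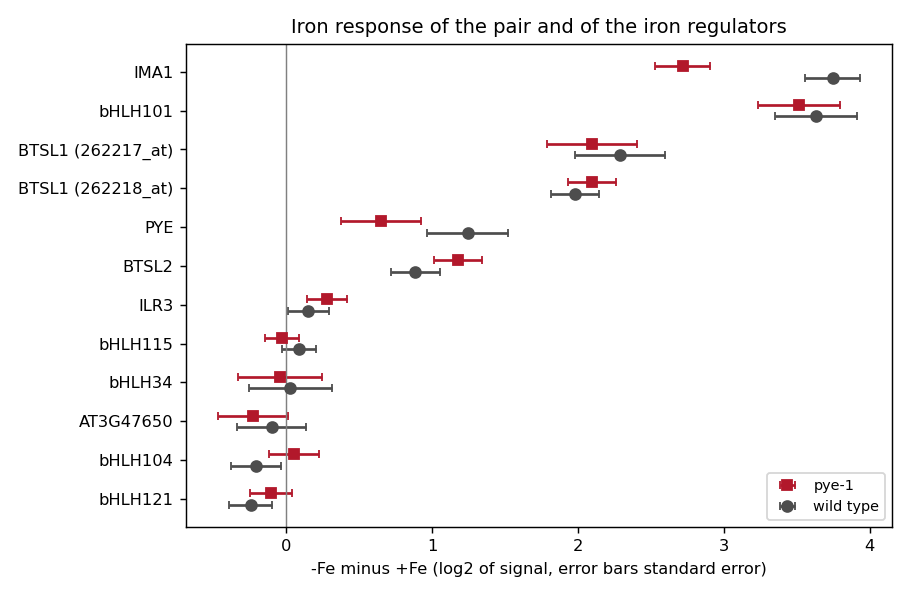
Iron difference (-Fe minus +Fe, log2 signal, with standard errors) in pye-1 (red squares) and wild type (grey circles) for PYE, AT3G47650 and the 10 probe sets of the iron regulator list, ordered by the wild-type value. AT3G47650 lies near 0 (-0.23 in pye-1, -0.10 in wild type) among the upstream bHLH factors, and PYE (0.65 and 1.24) lies between those and the strongly responding IMA1, bHLH101 and BTSL1. BTSL2 lies below PYE in wild type and above it in pye-1.

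Genes for Rubisco assembly and function, and for further plastid proteins with a DnaJ-type zinc finger, were read in the same way. Of 14 loci of the Rubisco list, 5 have a named and tested probe set. In pye-1 against wild type 0 of 5 were called without iron (2 at an unadjusted p under 0.05) or with iron (0 at an unadjusted p under 0.05). With 0.465% and 0.0628% of all probe sets called on these media, 0 of 5 is also what those shares would give. Their median genotype difference was -0.30 without iron and -0.01 with iron. RAF2 (AT5G51110), a Rubisco assembly factor, had -0.38 without iron and -0.12 with iron, and the Rubisco activase RCA had -0.10 and -0.01. The OR protein gene (AT5G61670), the 1 of 3 further DnaJ-type zinc finger genes with a named probe set, had 0.18 and -0.09. The genotype differences of AT3G47650, -1.72 and -1.59, were more than 2 times the size of each of these named values on the log2 scale.

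Green tissue was represented by 2 of 10 photosystem genes with a named probe set, LHCB4.1 and PSAN, both above the control level on all 8 arrays. Their summed signal was 357 to 373 in pye-1 without iron and 457 to 462 in pye-1 with iron, against 383 to 442 in wild type without iron and 549 to 621 in wild type with iron. Neither was called between genotypes. LHCB4.1, a light-harvesting protein, had -0.24 without iron (adjusted p = 0.876) and -0.45 with iron (adjusted p = 0.692), and PSAN, a photosystem I subunit, had 0.07 and -0.10 (adjusted p = 0.989 and 0.997). Their part in the AT3G47650 difference was not tested. The summed signal of EXPA7 and EXPA18 was 694 to 885 in pye-1 without iron and 922 to 1089 in pye-1 with iron, against 751 to 828 in wild type without iron and 1056 to 1413 in wild type with iron, and neither was called between genotypes. Between media, 1 of the 2 genes of each of these lists was called lower without iron in wild type. Over all tested probe sets 0.973% were called in wild type and 1.05% in pye-1. EXPA18 had an iron difference of -0.58 ± 0.17 in pye-1 (limma adjusted p = 0.261) and -0.93 ± 0.17 in wild type (0.031), and PSAN had -0.76 ± 0.18 in pye-1 (0.103) and -0.93 ± 0.18 in wild type (0.0372). With the replicate block both were also called in pye-1 (adjusted p = 0.016 and 0.0304), where the block called 422 of all 15922 probe sets. The wild-type call of EXPA18 was lost without wild-type replicate 1 on either medium or replicate 2 without iron (adjusted p up to 0.293), and that of PSAN without any 1 of the 4 wild-type arrays or the 2 pye-1 arrays without iron (up to 0.335). The part of these markers in the iron differences of PYE and the regulators was not tested.

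Likeness of pattern was measured as Pearson's r of log2 signal over the 8 arrays, among 737 tested probe sets whose group means spanned at least 1 on the log2 scale. The arrays share their genotype and medium, so r mostly reflects 4 group means and is given as a description. AT3G47650 and PYE correlated at 0.84, which put each at rank 15 for the other. By Spearman's rho the pair correlated less closely, at 0.67. The named gene most like PYE was GI (GIGANTEA), a clock-associated gene, with r = 0.94, and GI was also the named gene most like AT3G47650 (r = 0.93). GI read 113 and 134 signal units in pye-1 without iron and 140 and 104 in pye-1 with iron, against 401 and 413 in wild type without iron and 313 and 402 in wild type with iron. As with AT3G47650, its signals separated the genotypes and overlapped between media.

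Next for PYE came AT5G35940, of the jacalin-type lectin family (r = 0.92), AT1G20030 and the defensin gene PDF2.1 (0.88 each), AT1G14120 and AT1G70880 (0.86 each), AT3G47650 itself and AT5G12270 (0.83). PDF2.1 had an iron difference of -0.18 ± 0.37 in pye-1 and 1.20 ± 0.37 in wild type. Neither was called, nor was its interaction, and its wild-type signals with iron were spread, at 44.6 and 87.3. For AT3G47650 the list after GI was AT2G37870 (0.87), AT1G70880 (0.86), AT5G35940 and AT1G14120 (0.85 each), PYE, AT5G38020 (0.84) and AT5G12270 (0.83). Among the probe sets that name a single gene, the most negative r for both was that of AT2G05540, a glycine-rich protein gene, with r = -0.94 for PYE and -0.91 for AT3G47650. AT2G05540 read 160 and 167 signal units in pye-1 without iron and 194 and 152 in pye-1 with iron, against 40.8 and 31.3 in wild type without iron and 47.5 and 69.2 in wild type with iron. Also opposite were AT2G06390 and AT5G40510 for PYE (-0.92 and -0.90), and AT4G25030 and AT5G48490 for AT3G47650 (-0.84 each). By Spearman's rho, 5 of the 8 genes remained among the 8 most like PYE, but 2 of 8 for AT3G47650. GI itself did not keep first place for AT3G47650 by that measure, with a rho of 0.79 against 0.83 for AT1G70880 and 0.81 for AT2G37870.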

How the data were processed

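The data are 8 one-colour Affymetrix arrays of whole-root RNA, 2 per group of genotype and medium, grouped by the titles, which also number the replicates. The deposited values are signal intensity on a linear scale, computed by the authors with MAS5, per the submitters' processing notes, which give no version. The table carries no detection calls. Each probe set is written with ID. before its platform identifier.

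From these, log2 was taken of each deposited value without a pseudocount or further normalization. The 64 control probe sets were dropped, and so was the dimmest 30% of the others by mean log2 signal, which corresponds to a mean signal under 23.3. The remaining 15922 of 22746 entered a limma fit (version 3.58.1, R 4.3.3, with 1 mean per group, eBayes with intensity trend, 4 residual and 6.32 prior degrees of freedom). P-values were adjusted by Benjamini-Hochberg over all tested probe sets within each of 5 contrasts, with a threshold of 0.05. The fit was tried on simulated arrays with known changes. Their noise was independent between arrays, so they lack the shared deviations of same-numbered arrays described below. No exact permutation test was made, as 2 arrays against 2 allow no p below 0.333.

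Names came from the platform annotation given, matched by gene identifier to a TAIR10.1 table, which names 13513 probe sets as 1 gene, 503 as several and 8730 as none. No coordinates are given because no source used here names a build for the array. Named genes are the pair, the tested neighbours, the 8 most and 3 least like each member, and members of the lists, of which 1 is not reported here. The members and lists were chosen with earlier results of these data known, as was the control level.

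Same-numbered arrays deviated together from their group means (correlations of 0.178 to 0.302 in all 6 pairs of groups), so 1 alternative adds the replicate number as a block, with 3 residual and 9.41 prior degrees of freedom. Other alternatives were no filter, quantile normalization, signals raised to the control level, a pseudocount of 16, no trend, and each array left out.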

Additional observations from a re-analysis of the deposited data

How the results depend on the processing

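The genotype and iron differences of PYE and AT3G47650 moved by less than the larger replicate SD of log2 signal among the groups compared, under each alternative except a pseudocount of 16. With it, the genotype difference of PYE was -1.91 without iron and -1.22 with iron, and its iron difference was 0.37 in pye-1 and 1.06 in wild type. No filter, the replicate block and no trend cannot change these differences, only their standard errors. Raising signals to the control level changed nothing, as all readings of the pair lay above it. Leaving out 1 of 2 arrays always moves a group mean by less than its replicate SD. Only quantile normalization and the pseudocount could thus have exceeded this limit. Leaving out 1 array gave genotype differences of -2.52 to -2.35 without iron and -2.02 to -1.67 with iron for PYE, and -2.08 to -1.36 and -1.73 to -1.45 for AT3G47650. The AT3G47650 iron difference in pye-1 ran from -0.59 to 0.14, and its interaction from -0.49 to 0.24, so neither has a settled sign. The count of probe sets as low as AT3G47650 on both media, a result chosen after seeing the data, was 59 without the filter on dim signals and 2 to 4 otherwise. No neighbour was called under any alternative. Calls over all probe sets were 273 without iron and 55 with iron for genotype with the replicate block (74 and 10 without it), 422 in pye-1 and 485 in wild type for iron (167 and 155), and 56 for the interaction (14). Without the intensity trend they were 26 for genotype without iron, 99 and 90 for iron in pye-1 and wild type, and 0 for the interaction, which had 8 calls without the filter. Leaving out 1 array gave 20 to 88 and 5 to 17 for genotype without and with iron, 87 to 154 and 83 to 173 for iron in pye-1 and wild type, and 0 to 10 for the interaction. The cause of these shifts was not tested. PYE in pye-1 with iron lies so near the control level that its size there is limited by signal.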

Other observations

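A wider stretch around the pair, 50 protein-coding genes on either side, was read after the values of the first 20 neighbours had been seen. Of these 100 genes 48 have a named probe set, and 42 probe sets were tested. In pye-1 against wild type 0 of 42 were called by limma without iron (6 at an unadjusted p under 0.05, and 1 call with the replicate block) and 0 with iron (4 at an unadjusted p under 0.05, and 0 calls with the block). Over all probe sets 0.465% were called without iron (273 of 15922 with the block) and 0.0628% with iron (55 of 15922 with the block). The counts of calls are thus near what those shares give. An unadjusted limma p under 0.05 was found for 1113 of all 15922 without iron and 897 with iron. The 6 and the 4 of 42 are larger shares than these, and this excess was not tested. The lowest differences were -0.83 without iron, for AT3G48120, and -0.85 with iron, for AT3G47510, against -1.72 and -1.59 for AT3G47650. AT3G47510 read 284 and 268 signal units in pye-1 with iron, against 647 and 383 in wild type with iron, and 297 and 365 in pye-1 without iron, against 295 and 285 in wild type without iron. The signals of AT3G47510 in wild type with iron thus lay above those of all the other groups, most of all on 1 array. Its genotype difference with iron was not called (limma adjusted p = 0.448). In wild type its iron difference was -0.78 ± 0.22 (adjusted p = 0.2, and 0.0438 with the replicate block).

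The unnamed probe set ID.258321_at, which was as low as AT3G47650 in pye-1 on both media, read 115 and 131 signal units in pye-1 without iron and 112 and 218 in pye-1 with iron, against 497 and 429 in wild type without iron and 401 and 563 in wild type with iron. Its genotype difference was -1.91 ± 0.28 without iron and -1.61 ± 0.28 with iron. The iron differences were -0.35 ± 0.28 in pye-1 and -0.04 ± 0.28 in wild type. Its gene and its place in the genome are not given in the tables used here.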
